A study of Mus musculus with 19 samples.

Results

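The *Slc2a* genes encode the GLUT proteins, carriers in cell membranes through which glucose, fructose and other hexoses, and for some members urate, move down their own concentration gradient. They differ in substrate, in affinity and in the cell that uses them. In hepatocytes the carrier best known is GLUT2, encoded by *Slc2a2*, which lets glucose pass in both directions: into the cell from the portal blood after a meal, and out of it when glycogen is broken down or new glucose is made. The 10 family members described here (*Slc2a1*, *Slc2a2*, *Slc2a3*, *Slc2a4*, *Slc2a5*, *Slc2a6*, *Slc2a8*, *Slc2a9*, *Slc2a10* and *Slc2a12*) were picked by gene symbol, whatever their values, and are 10 of the 19505 named genes measured. The question asked of them was whether the liver of mice with little methylmalonyl-CoA mutase, the enzyme encoded by *Mmut*, carries other amounts of hexose carrier RNA than the liver of control mice.

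RNA was measured in the liver of male C57BL/6N mice, aged 20 weeks by the labels, with 1 Mouse Clariom S array per mouse. The 9 controls (*Mmut*-ki/wt) had a wild-type allele and a knock-in allele with the p.Met700Lys change, and the 10 mutants (*Mmut*-ko/ki) had a knockout allele and that same knock-in allele. Both groups therefore carried the knock-in allele, and no mouse with 2 wild-type alleles was compared. All animals came from crosses of ko/wt females with ki/ki males and had free access to a customised high-protein diet outside fasting tests. No treatment set the groups apart. The cohorts of the study also had fasts, a cold challenge and injections of glucose or insulin. Which of these the array mice had before the liver was taken is not stated. The values are log2 signals, so that a difference of 1 is a doubling.

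*Mmut* itself followed the labels. Its log2 signal was 12.80 to 13.53 in control mice and 11.18 to 11.90 in mutant mice, a difference of -1.66 with a standard error of 0.12 (limma, adjusted p = 5.28e-10). The arrays correlated with each other at r between 0.975 and 0.989, and 68.0% to 77.1% of their probe sets were detected above background. All 11 measured hepatocyte markers were detected on every array, and 0 of them passed the limma test (1 at an unadjusted p under 0.05, and 1 with the methods' t-test or the Wilcoxon test). Of these, *Alb*, *Apoa1*, *Ttr* and *Serpina1a* had means of 19.89 to 19.91, at the top of the scale (highest value of any gene 19.92), where a difference could not be shown. Control replicate 1 and mutant replicate 6 had stood apart in an earlier analysis of these data. Calls of members, and counts of the lists around the hexose carriers, that change without either are given both ways.

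Of the 10 members, 1 passed the test across all genes: *Slc2a5*, encoding the fructose carrier GLUT5, was 1.63-fold lower in mutants. *Slc2a2* had a higher mean in mutants and did not pass the main test. *Slc2a9*, the urate carrier, had a higher mean and *Slc2a1* and *Slc2a4* had lower means, none past the threshold. The other 5 members were at or near background in both genotypes. Over all genes 10.1% were called at an adjusted p under 0.05 (4.73% higher and 5.33% lower), so that 1 of 10 members is the share found among all genes. Without adjustment, 5 of the 10 members had a limma p under 0.05, against 22.3% of all genes. Among these 5 was *Slc2a3*, which was detected on only 1 array. Of the members, 5 had a higher and 5 a lower mean in mutants, and 0 members had groups that did not overlap, against 1.48% of all genes.

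**Figure D1:**
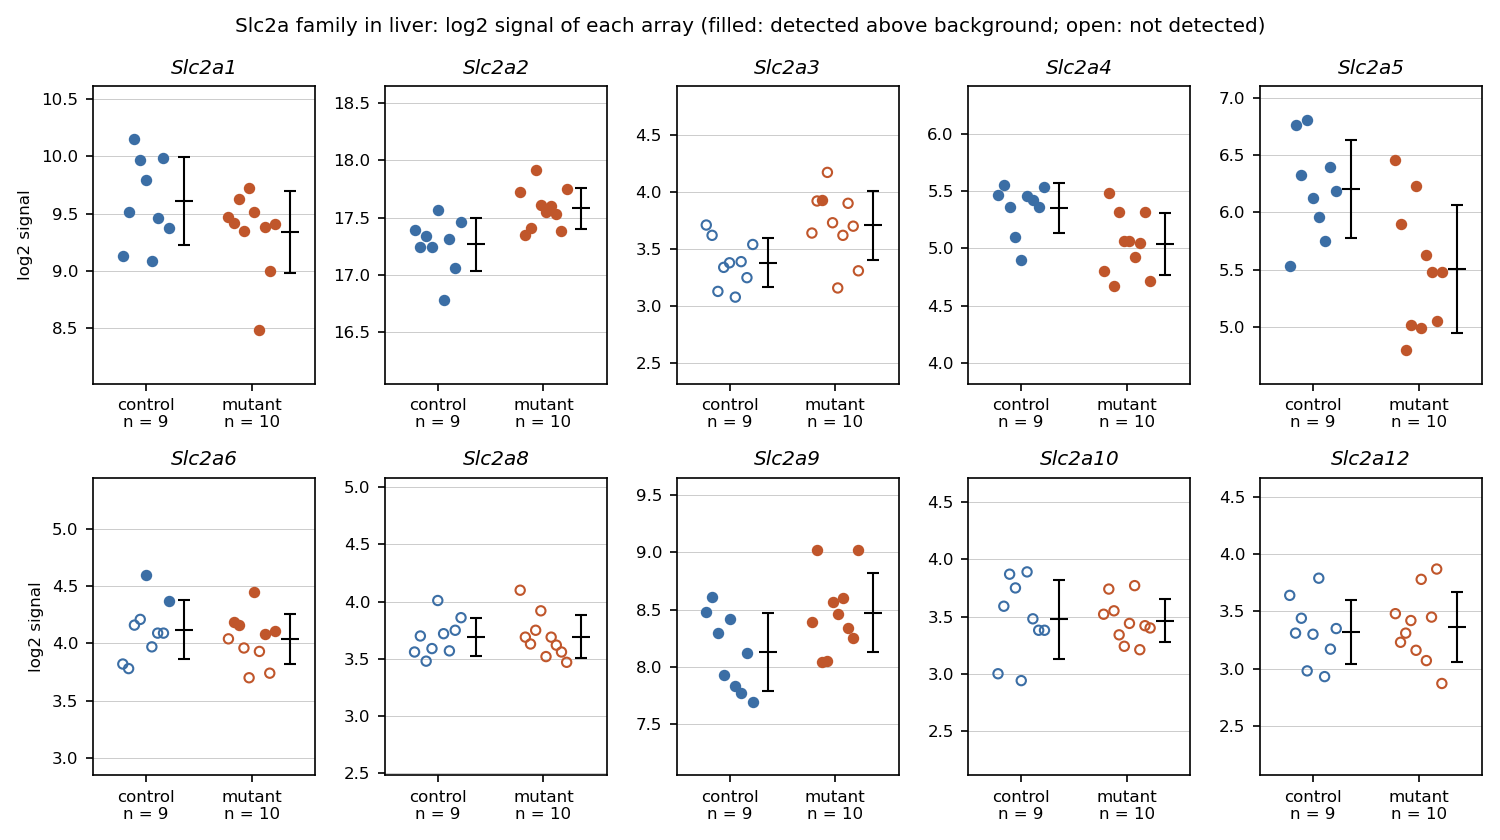
Log2 signal (y axis) of each mouse for the 10 *Slc2a* members, 9 controls and 10 mutants, filled where the probe set was detected above background and open where it was not; bars give the mean and SD. Each panel spans the same height but starts at its own value, so that levels are not comparable between panels; the mutants sit lower than the controls in *Slc2a5*, with 6 of 10 below every control.

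Detection splits the family. At a detection p under 0.05, *Slc2a1*, *Slc2a2*, *Slc2a4*, *Slc2a5* and *Slc2a9* were detected on all 19 arrays, as were 55.6% of all genes. *Slc2a6* was detected on 2 of 9 control and 5 of 10 mutant arrays, and *Slc2a3* on 0 of 9 and 1 of 10. *Slc2a8*, *Slc2a10* and *Slc2a12* were detected on none. In all, 103 of the 190 pairs of a member and an array were above background, and 82 at a detection p under 0.01.

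*Slc2a5* encodes GLUT5, which carries fructose and little glucose, and is best known from the small intestine. In the controls its log2 signal was lowest at 5.53, in replicate 1, had a median of 6.19 and was highest at 6.81, in replicate 4. In the mutants the lowest value was 4.80, in replicate 3, the median 5.48 and the highest 6.46, in replicate 1. Thus 6 of 10 mutants lay below every control and all 9 controls lay above the mutant median, while mutant replicates 1, 2, 5 and 7 fell within the range of the controls. The mean was 6.21 ± 0.43 (SD, n = 9) in controls and 5.50 ± 0.56 (SD, n = 10) in mutants, a log2 difference of -0.70 (standard error 0.21, 95% interval -1.13 to -0.28, limma, adjusted p = 0.0276). The exact two-sided permutation test over 92378 splits of the arrays gave p = 0.00875. Among all genes, 5.33% were called lower in mutants, and 8.83% of the genes detected on all arrays. The difference stood at position 322 of 19505 counted from the most negative, and outside the central 95% of all genes (-0.60 to 0.66).

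*Slc2a5* was dim, and more so in mutants. All 9 controls were detected at a detection p under 0.01, but only 6 of 10 mutants, and the highest detection p of any array was 0.0318, in mutant replicate 4. The call depends on the test: the adjusted p was 0.0645 with the methods' t-test, 0.0996 with the exact Wilcoxon test and 0.0736 with the replicate number as a block. It was also lost when control replicate 2 (0.0599), control replicate 4 (0.0612), control replicate 8 (0.0507), mutant replicate 3 (0.0549), mutant replicate 4 (0.0534), mutant replicate 6 (0.0518) or mutant replicate 9 (0.0525) was left out, and kept without each of the other 12. The difference itself moved between -0.63 and -0.81 over these fits, and adjusted p between 0.00709 and 0.0996 over all alternatives.

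Other cells of the liver can carry these RNAs, and in whole liver fewer cells of a type and less RNA per cell cannot be told apart. Of 9 Kupffer cell and macrophage markers, 4 were higher in mutants and 0 lower by limma (2 called by the methods' t-test and 1 by the Wilcoxon test). Their summed linear signal was 4920 to 8320 in control mice and 5770 to 19900 in mutant mice, with *Vsig4*, a complement receptor of resident macrophages, up by 0.87 (limma, adjusted p = 0.00435) and *Clec4f*, a lectin of Kupffer cells, by 0.72 (limma, adjusted p = 0.0183). The 10 endothelial markers summed to 13300 to 19300 in controls against 16000 to 22300 in mutants, and 1 was called, *Clec4g*, a lectin of sinusoidal endothelium, up by 0.67 (limma, adjusted p = 8.71e-05). The 4 erythroid markers summed to 1260 to 2440 in controls against 360 to 1010 in mutants. Most of that sum was *Alas2*, encoding the erythroid enzyme of the first step of heme synthesis. Its mean log2 signal in controls was 10.72, against 6.65 for the next brightest, *Slc4a1*, the anion exchanger of red cells. *Alas2* was lower by a log2 difference of -1.89 (limma, adjusted p = 1.18e-07). The other 3 were not called, and *Slc4a1* differed by 0.05 (limma, adjusted p = 0.826).

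Of 6 cholangiocyte markers 1 was called, *Sox9*, a transcription factor of duct cells, lower by a log2 difference of -0.77 (limma, adjusted p = 0.0079), while *Krt19* was detected on no array. The median difference of the list was 0.02, and 2 of the 6 were detected on all arrays. The list summed to 182 to 281 in controls against 144 to 239 in mutants, with *Sox9*, at a mean of 6.71 in controls, its brightest marker. Of 10 stellate cell and fibroblast markers 1 was called, *Reln*, encoding the matrix protein reelin, lower by a log2 difference of -0.44 (limma, adjusted p = 0.0196). The median difference of the list was 0.04, and it summed to 33800 to 42400 in controls against 36600 to 51600 in mutants. Most of that sum was *Dcn*, with a mean log2 signal of 15.20 in controls and a difference of 0.14 (limma, adjusted p = 0.432). Of 9 lymphocyte markers 1 was called, *Cd4*, a coreceptor of T cells, lower by a log2 difference of -0.55 (limma, adjusted p = 0.0466). With the methods' t-test or the Wilcoxon test 0 were called. All the other lymphocyte markers had higher means in mutants, and the median difference was 0.26. The list summed to 201 to 316 in controls (median 264) against 217 to 374 in mutants (median 241). Of the 9 lymphocyte markers, 3 were detected on all arrays. Among hepatocyte zone markers, 2 of 7 pericentral ones were lower in mutants, *Oat*, encoding ornithine aminotransferase, by a log2 difference of -1.15 (adjusted p = 3.35e-04) and *Cyp1a2*, a cytochrome P450, by -0.40 (adjusted p = 0.0331). Of 7 periportal ones 1 was higher, *Hsd17b13*, by 0.49 (limma, adjusted p = 0.00287), and 2 were lower. The lower ones were *Aldh1b1*, an aldehyde dehydrogenase, with a log2 difference of -0.73 (adjusted p = 0.00276), and *Cdh1*, encoding E-cadherin, with -0.84 (adjusted p = 0.00284). The periportal list had a median difference of -0.33 and summed to 812000 to 979000 in controls against 720000 to 1220000 in mutants. For fat and muscle, 0 of 6 adipocyte markers were called (0 at an unadjusted limma p under 0.05), with *Adipoq* and *Lep* detected on no array, and 0 of 8 skeletal muscle markers (3 at an unadjusted limma p under 0.05), with *Myh4* detected on none. The part of these cell types in the values of the hexose carriers was not tested.

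*Slc2a2* encodes GLUT2, the hepatocyte carrier with high capacity and low affinity for glucose, which also carries fructose. In the controls its log2 signal was lowest at 16.78, in replicate 6, had a median of 17.31 and reached 17.57, in replicate 5. In the mutants it ran from 17.35, in replicate 2, over a median of 17.58 to 17.92, in replicate 4. The ranges overlapped, with 5 of 10 mutants above every control, 6 of 9 controls below every mutant and all 10 mutants above the control mean. The means were 17.26 ± 0.23 (SD, n = 9) and 17.58 ± 0.18 (SD, n = 10), a difference of 0.32 (standard error 0.11, 95% interval 0.09 to 0.55), which is a ratio of 1.25 (1.06 to 1.46) on the linear scale. The limma fit gave an adjusted p = 0.0707, and the exact permutation test p = 0.00219.

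*Slc2a2* therefore missed the threshold under the main analysis, and passed it under 5 alternatives. The adjusted p was 0.0135 with a trend and robust settings in the variance model, 0.0366 with the exact Wilcoxon test, 0.0295 over genes above the median signal, 0.0463 over genes detected on 9 or more arrays and 0.0458 without control replicate 5, the highest control. It was 0.106 after median centring, 0.148 without control replicate 6, the lowest control, and 0.170, the highest of all alternatives, with the replicate number as a block. The mean was higher in mutants in every one of these fits, by 0.26 to 0.36.

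**Figure D2:**
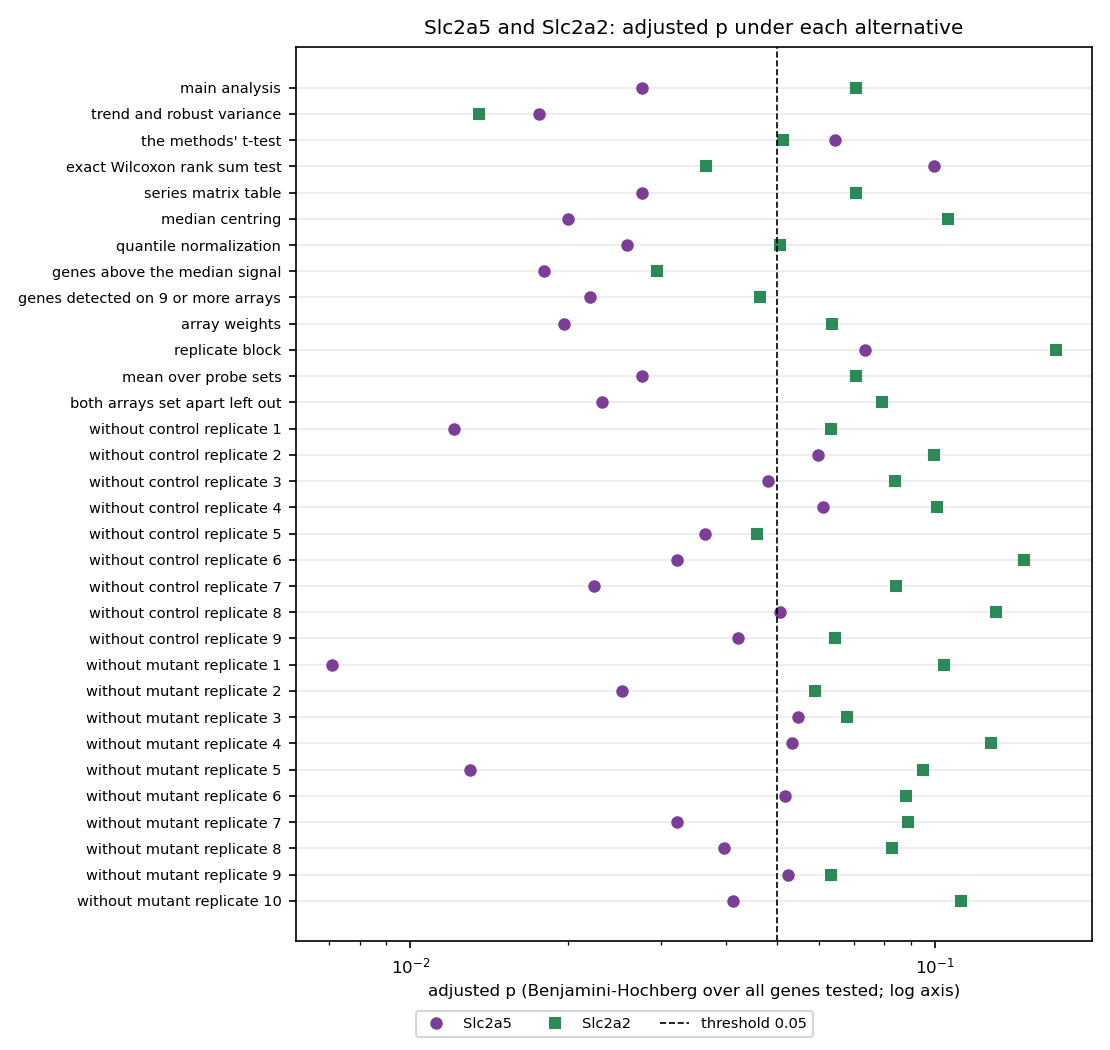
Adjusted p (x axis, log scale) of *Slc2a5* (circles) and *Slc2a2* (squares) in the main analysis and in each of 31 alternatives (y axis); the dashed line marks the threshold of 0.05. *Slc2a5* lies between 0.00709 and 0.0996 and *Slc2a2* between 0.0135 and 0.170, and both cross the line.

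The bases just before the start of both genes are shown because *Slc2a5* was the one member called and *Slc2a2* the one closest to the threshold. They come from RefSeq (mouse, GRCm38.p6), 250 bases each, 5′ to 3′ on the strand of the gene. Capitals mark matches, on either strand, to the GC box GGGCGG, the CCAAT box CCAAT and the nuclear receptor motif AGGTCA.
*Slc2a5*, chr4:150119094-150119343, plus strand: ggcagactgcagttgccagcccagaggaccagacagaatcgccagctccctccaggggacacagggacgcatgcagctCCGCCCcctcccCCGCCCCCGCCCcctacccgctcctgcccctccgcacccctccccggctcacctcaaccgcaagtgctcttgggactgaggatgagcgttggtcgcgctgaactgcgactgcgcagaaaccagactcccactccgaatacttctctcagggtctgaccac
*Slc2a2*, chr3:28697653-28697902, plus strand: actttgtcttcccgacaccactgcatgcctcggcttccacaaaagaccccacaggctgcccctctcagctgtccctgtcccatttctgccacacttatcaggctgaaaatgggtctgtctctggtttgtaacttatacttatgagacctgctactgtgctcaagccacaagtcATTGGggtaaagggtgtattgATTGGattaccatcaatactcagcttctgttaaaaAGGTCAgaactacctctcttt
The *Slc2a5* stretch holds 66.4% G and C and 15 CpG dinucleotides, with 3 GC boxes on the opposite strand between 172 and 149 bases before the start. The *Slc2a2* stretch holds 47.2% G and C and 2 CpG dinucleotides, with a nuclear receptor motif 21 to 16 bases before the start and a pair of CCAAT boxes upstream of it, at 77 to 73 and 56 to 52 bases. Over all 32851 promoters of the same length the median was 52.4% G and C, 32.7% held a GC box, 33.8% a CCAAT box and 14% the nuclear receptor motif. Of the 10 members, 8 were in the table, of which *Slc2a1*, *Slc2a5*, *Slc2a6* and *Slc2a10* held a GC box, *Slc2a2* and *Slc2a9* the nuclear receptor motif (the *Slc2a9* entry being 1 of several possible starts of that gene), and *Slc2a2*, *Slc2a6*, *Slc2a8* and *Slc2a10* a CCAAT box. No member held TATAAA (12.4% of all promoters), the E box CACGTG (6.02%), the HNF1 motif GTTAAT (6.43%) or the FOXA site TGTTTAC (3.17%). A match is a description of the letters and not a site of binding.

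*Slc2a1* encodes GLUT1, the carrier of basal glucose uptake in most cells and of the blood-brain barrier. Its log2 signal ran from 9.09, in control replicate 6, over a median of 9.51 to 10.15, in control replicate 3. The mutants ran from 8.48, in replicate 7, over a median of 9.41 to 9.72, in replicate 5. There were 4 controls above every mutant, and 2 mutants below every control. The means were 9.61 ± 0.39 (SD, n = 9) and 9.34 ± 0.35 (SD, n = 10), and their difference of -0.27 (standard error 0.16, 95% interval -0.60 to 0.06) did not pass the test (limma, adjusted p = 0.342, and exact permutation p = 0.130).

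*Slc2a4* encodes GLUT4, which insulin brings to the surface of muscle and fat cells. In the controls the log2 signal ran from 4.90 over a median of 5.42 to 5.55, and in the mutants from 4.67 over a median of 5.05 to 5.48. The groups overlapped, with 3 of 10 mutants below every control and 9 of 10 below the control mean. The means were 5.35 ± 0.22 (SD, n = 9) and 5.04 ± 0.27 (SD, n = 10), a difference of -0.31 (standard error 0.12, 95% interval -0.56 to -0.06). It did not pass the test (limma, adjusted p = 0.115, and exact permutation p = 0.0156). *Slc2a4* passed the threshold under none of its 30 alternatives, where the adjusted p ran from 0.0535 to 0.230. The signal was close to background: only 6 of 9 controls and 4 of 10 mutants were detected at a detection p under 0.01.

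*Slc2a3* encodes GLUT3, the high-affinity carrier of neurons, which white blood cells also use. Its log2 signal was between 3.08 and 3.71 in control mice and between 3.16 and 4.17 in mutant mice. The probe set was not above background on any control array and on 1 mutant array, replicate 3, so that no fold is given and no change in level is read from it. The log2 difference of these background signals, 0.33, did not pass the test (limma, adjusted p = 0.112), and passed it without mutant replicate 6, the lowest mutant (0.0445), and without mutant replicate 6 and control replicate 1 together (0.0242). Of 9 neutrophil and monocyte markers 0 were called by limma (1 at an unadjusted p under 0.05), and *Ngp* and *Camp* were detected nowhere. They summed to between 184 and 244 in controls and between 203 and 325 in mutants, and their part in the *Slc2a3* value was not tested.

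*Slc2a9* encodes GLUT9, a carrier of urate that in mouse liver takes urate into hepatocytes for breakdown by urate oxidase. In the controls the log2 signal ran from 7.69, in replicate 9, over a median of 8.12 to 8.61, in replicate 2. In the mutants it ran from 8.04, in replicate 3, over a median of 8.43 to 9.02, which replicates 2 and 10 shared. The overlap was wide, with 2 of 10 mutants above every control and 4 of 9 controls below every mutant. The means were 8.13 ± 0.34 (SD, n = 9) and 8.47 ± 0.35 (SD, n = 10), a difference of 0.35 (standard error 0.15, 95% interval 0.03 to 0.66) that did not pass the test (limma, adjusted p = 0.168, and exact permutation p = 0.0424). It passed the threshold under none of its 31 alternatives, with adjusted p from 0.102 to 0.330.

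The remaining members are known from intracellular membranes or from other tissues. *Slc2a6* encodes GLUT6, found in lysosomes, *Slc2a8* encodes GLUT8, an intracellular carrier, *Slc2a10* encodes GLUT10, whose loss in humans causes arterial tortuosity, and *Slc2a12* encodes GLUT12, a carrier of muscle and fat. *Slc2a6* had means of 4.12 ± 0.26 (SD, n = 9) and 4.04 ± 0.22 (SD, n = 10), with a difference of -0.09 (95% interval -0.33 to 0.16, limma, adjusted p = 0.746). *Slc2a8*, *Slc2a10* and *Slc2a12*, not above background on any array, differed by 0.00 (95% interval -0.21 to 0.22), -0.01 (-0.28 to 0.26) and 0.04 (-0.24 to 0.33) on the log2 scale, with adjusted p of 0.993, 0.974 and 0.902 (limma). For these 3 the signal gives no level, and a difference between the genotypes was not detectable above background.

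**Figure D3:**
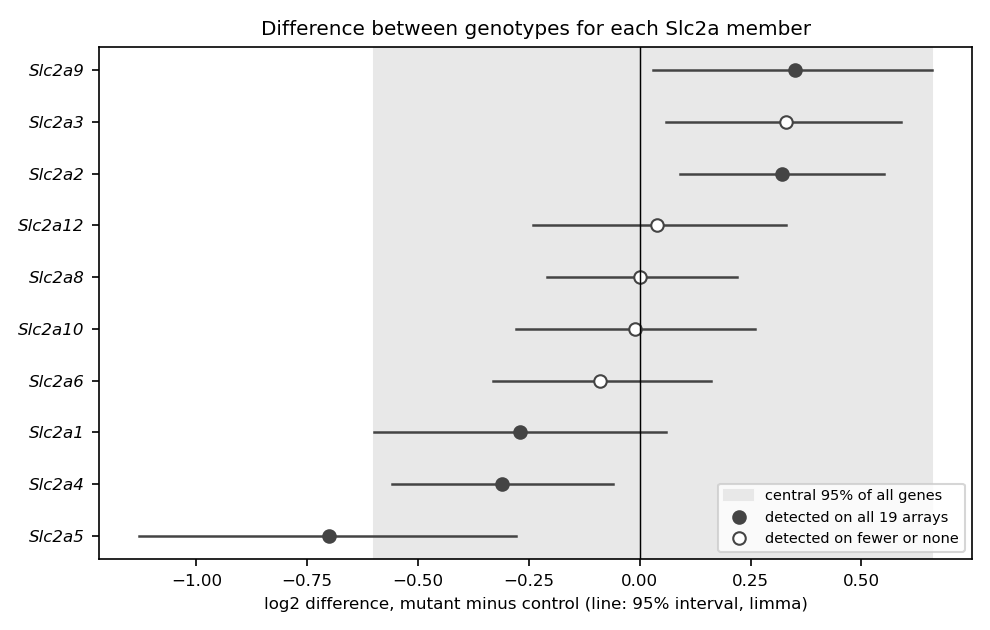
Log2 difference between genotypes (x axis, mutant minus control) of each *Slc2a* member (y axis), with its 95% interval from limma over 9 controls and 10 mutants; filled points were detected on all 19 arrays, open points on fewer or none. The grey band holds the central 95% of all 19505 genes (-0.60 to 0.66), and *Slc2a5* at -0.70 is the one member whose point lies outside it.

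Some mice were the highest or lowest of their genotype in more than 1 member. Whether this was more often than by chance was not tested. Over the 19 arrays, the deviations of the 5 detected members from their genotype means correlated at r between -0.30 (*Slc2a1* and *Slc2a4*) and 0.34 (*Slc2a5* and *Slc2a9*), given as a description of points that share arrays and normalization. Mutant replicate 3 was the lowest mutant in *Slc2a4*, *Slc2a5* and *Slc2a9*, and control replicate 6 the lowest control in *Slc2a1* and *Slc2a2*. Mutant replicate 2 was the highest mutant in *Slc2a4* but the lowest in *Slc2a2*, and shared the highest mutant value of *Slc2a9* with replicate 10. Control replicate 2 was the highest control in *Slc2a4* and *Slc2a9*. The largest single deviations were 0.96 in *Slc2a5* of mutant replicate 1 and -0.85 in *Slc2a1* of mutant replicate 7.

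**Figure D4:**
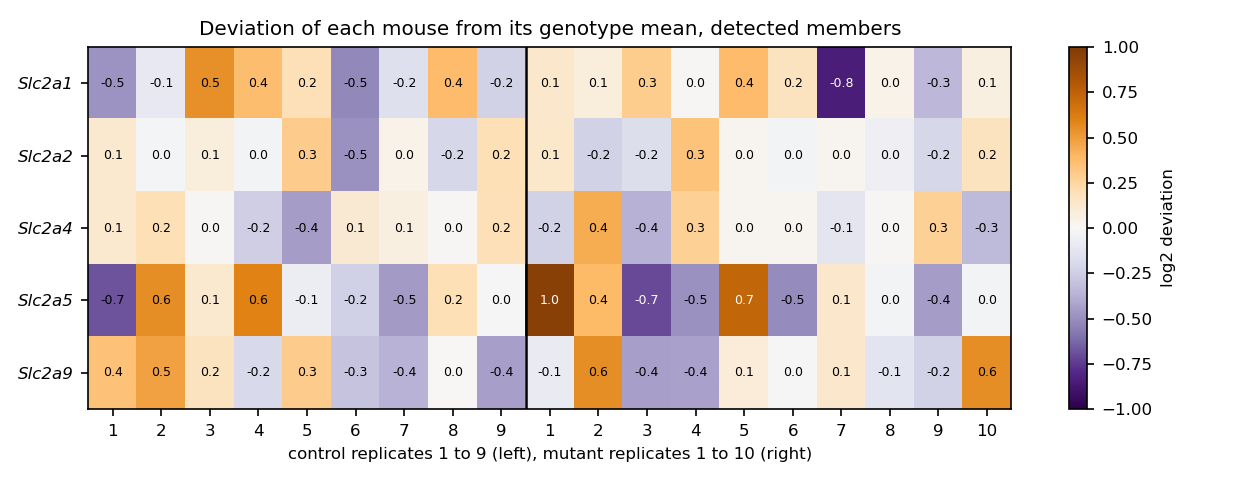
Deviation of each mouse (x axis, 9 controls to the left of the line and 10 mutants to its right) from the mean of its own genotype in log2 units (colour and number) for the 5 *Slc2a* members detected on all 19 arrays (y axis). The largest deviation, 0.96, is in *Slc2a5* of mutant replicate 1, and mutant replicate 3 is the lowest mutant in 3 of the 5 members.

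The genes most like *Slc2a5* from mouse to mouse within genotypes, of 10848 others detected on all arrays, were *Hsd3b3*, a hydroxysteroid dehydrogenase (r = 0.78), *Med29*, a subunit of the Mediator complex (r = 0.78), and *Cyp4f37*, a cytochrome P450 (r = 0.75), each over 19 arrays. They are the top 3 of that many correlations, whose central 95% reached up to r = 0.52. *Hsd3b3* was lower in mutants by a log2 difference of -0.73 (limma, adjusted p = 1.80e-04). *Med29* differed by -0.29 (adjusted p = 0.196) and *Cyp4f37* by -0.19 (adjusted p = 0.567).

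Beyond the 10 members, the lists around the hexose carriers gave counts on both sides of the 10.1% found among all genes. Of 14 other sugar carriers, which include the sodium-coupled glucose carriers of the Slc5a family as well as *Slc2a7* and *Slc2a13*, 0 were called by limma (2 at an unadjusted p under 0.05, and 0 with the methods' t-test or the Wilcoxon test), and the median difference was 0.05. Without control replicate 1 the count was 1.

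Of 14 genes at the first step of glucose and fructose use and at glucose release, 0 were higher and 2 lower in mutants, with a median of -0.20. *Gckr*, a regulatory gene of glucose use in the liver, had a log2 signal of 13.00 ± 0.15 (SD, n = 9) in controls and 12.57 ± 0.19 (SD, n = 10) in mutants, and was lower in mutants by a log2 difference of -0.43 (standard error 0.10, limma, adjusted p = 0.00563), and 8 of 10 mutants were below the lowest control. *Khk*, encoding ketohexokinase, which phosphorylates fructose once it has entered the cell, went from 15.58 ± 0.15 (SD, n = 9) to 15.13 ± 0.30 (SD, n = 10), a difference of -0.45 (standard error 0.12, limma, adjusted p = 0.0141), and 6 of 10 mutants were below the lowest control. The count was 4 without control replicate 7, without mutant replicate 5 or without mutant replicate 7, and 3 without control replicate 1 or without control replicate 6.

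Of 19 transcription factors known to act at hexose carrier genes, 3 were higher and 2 lower, with a median of 0.10. *Pparg*, a lipid-sensing nuclear receptor best known from fat cells, went from 5.44 to 8.69, a rise of 3.25 (standard error 0.26, limma, adjusted p = 2.81e-09), and the 10 mutants all lay above the 9 controls. *Mlx*, the partner of the carbohydrate response factor ChREBP, was lower by a log2 difference of -0.60 (adjusted p = 0.00561), and *Nr1h3*, encoding the sterol receptor LXR alpha, by -0.51 (adjusted p = 0.0136). *Mef2d*, of a family that acts at the *Slc2a4* promoter in muscle, was higher by 0.58 (adjusted p = 0.0156). The count of called genes lay between 4 and 5 when single arrays were left out, and was 4 without control replicate 1 or without mutant replicate 6. With the methods' t-test 4 were called, and with the Wilcoxon test 3.

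Of 21 genes of the trafficking of hexose carriers, 1 was higher and 1 lower, with a median of 0.03. *Usp25*, a protease of ubiquitin-like tags, was higher by 0.44 (adjusted p = 0.0317), and *Stxbp3*, whose protein binds the syntaxin at which GLUT4 vesicles dock, was lower by a log2 difference of -0.37 (adjusted p = 0.0497). The count stayed at 2 without control replicate 5, mutant replicate 3 or mutant replicate 10, was 0 without control replicate 3, control replicate 6, mutant replicate 1, mutant replicate 6 or mutant replicate 8, and was 1 without any other array.

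Of 12 genes of the handling of urate, a substrate of GLUT9, 3 were higher and 4 lower, and their median was -0.01. *Slc22a7*, an organic anion carrier of the hepatocyte membrane, went from 7.28 in controls to 4.53 in mutants, a difference of -2.75 (standard error 0.23, limma, adjusted p = 5.01e-09), so that the 2 groups did not overlap, and 8 of 10 mutant arrays were above background. *Slc17a3*, a urate and phosphate carrier, was also lower, by a log2 difference of -1.32 (adjusted p = 1.57e-05), whereas its neighbours in the same family, *Slc17a1* and *Slc17a2*, were higher by 1.26 (adjusted p = 2.64e-04) and 1.06 (adjusted p = 4.91e-04). The count lay between 6 and 7 when single arrays were left out.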

How the data were processed

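Liver RNA of 9 control and 10 mutant mice was amplified and hybridised by the authors to Mouse Clariom S arrays. SST-RMA, a robust multi-array average that normalises all arrays together, was run by the authors in the array maker's software, and gave the deposited log2 signals, 1 for each probe set and mouse. The deposited detection p-value states, per array, whether a probe set was above background. Log2 values in another deposited table differed by at most 0.0005. The genome build of the array annotation is not given in the sources used here. The number of arrays limits the precision, as does background for dim genes.

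No further normalisation was applied. Among 22206 probe sets, 19572 name 1 gene in the platform annotation and 2634 are unnamed. Where a gene had more than 1 probe set (55 genes), its brightest was used. Genotypes were compared with limma 3.58.1 in R 4.3.3 (two-sided lmFit and eBayes). P-values were adjusted after Benjamini-Hochberg over the 19505 genes, with a threshold of 0.05. Each member also has an exact two-sided permutation test. The procedure was tested on simulated data. There it called 25 of 50 genes changed by 0.5 in log2, and 46 of 50 changed by 1.0. Further steps used Python 3.11.15, numpy 2.4.6, pandas 2.3.3 and matplotlib 3.10.9.

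Members and lists were chosen with earlier results of these data known, and the lists were written from general knowledge. Named are all members, *Mmut*, up to 4 called genes of each pathway list and 2 of each marker list with the smallest adjusted p, and the 3 genes most like the called member. *Slc4a1*, *Hsd17b13*, *Dcn*, the markers not detected, the 4 hepatocyte markers at the top of the scale and *Slc2a7* and *Slc2a13* were named after their values were seen. Some list genes are not reported here. Protein sequences were not used here.

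As alternatives, the variance model, the methods' t-test and Wilcoxon test, the second table, 2 further normalisations, 2 filters on dim genes, array weights, a replicate block, the mean over probe sets, and leaving out arrays were run. The labels give the age as 20 weeks, and a figure legend of the study gives a slightly lower one.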

Additional observations from a re-analysis of the deposited data

How the results depend on the processing

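The number of members called, 1 in the main analysis (*Slc2a5*), was 2 with a trend and robust settings in the variance model, 2 over genes above the median signal and 2 over genes detected on 9 or more arrays (*Slc2a2* and *Slc2a5* each time), and 2 without control replicate 1 and mutant replicate 6 (*Slc2a3*, whose signal was at background, and *Slc2a5*). It was 0 with the methods' t-test and 0 with the replicate number as a block, and ran from 0 to 2 with single arrays left out. With the exact Wilcoxon test it was 1, *Slc2a2* in place of *Slc2a5*. *Slc2a8* changed sign after median centring (-0.03), quantile normalisation (-0.02) and array weights (-0.01). With single arrays left out, *Slc2a8* ran from -0.04 to 0.04, *Slc2a10* from -0.08 to 0.04 and *Slc2a12* from -0.01 to 0.10, all undetected. *Slc2a1*, *Slc2a2*, *Slc2a3*, *Slc2a4*, *Slc2a5*, *Slc2a6* and *Slc2a9* kept their direction under every alternative run. With single arrays left out, the genes called ran from 0 to 1 among other sugar carriers, from 2 to 4 at the first step of glucose and fructose use and from 0 to 2 in trafficking. Over all genes, 1488 to 2220 were called, with 2047 when control replicate 1 and mutant replicate 6 were both left out. Same-numbered mice correlated at r between -0.09 and 0.06 over 9 pairs, so no pairing by replicate number was seen, though such a check cannot exclude one. The replicate block, which leaves out mutant replicate 10, called 1488 genes against 1962. The causes of these changes were not tested. Signal over background limits *Slc2a3*, *Slc2a6*, *Slc2a8*, *Slc2a10* and *Slc2a12*.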
